A study of Mus musculus with 8 samples.

Results

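Platelet-derived growth factors (PDGFs) were described in the developing secondary palate through the 6 genes that encode their ligands (Pdgfa, Pdgfb, Pdgfc and Pdgfd) and receptors (Pdgfra and Pdgfrb). The members were the rows of the deposited table whose gene symbol equalled one of these names, and 6 of 55536 genes were found, each on a single row. RNA came from mouse embryos at E14.5, from the posterior palatal shelves of the right and left side, taken before elevation with epithelium and mesenchyme together. The 4 mutant libraries were from Yapfl/fl;Tazfl/fl;Col2Cre embryos, in which Cre driven by Col2a1 regulatory sequence acts on floxed alleles of Yap1 and Taz (Wwtr1), the genes for the transcriptional co-activators YAP and TAZ of the Hippo pathway. The 4 control libraries were from Yapfl/fl;Tazfl/fl embryos, whose labels list the same floxed alleles and no Cre. The comparison of mutant with control asks how PDGF gene expression in the unelevated shelf differs when embryos with these floxed alleles also carry Col2Cre.

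PDGFs are secreted as disulfide-linked dimers that bind and pair receptor tyrosine kinases on neighbouring cells. PDGF-A and PDGF-C chains act through PDGFRα, PDGF-B binds both receptors, and PDGF-D acts mainly through PDGFRβ. PDGF-C and PDGF-D leave the cell as latent proteins whose CUB domain is cut off by proteases such as tissue plasminogen activator, urokinase and matriptase. In the mouse face PDGFRα marks the neural crest-derived mesenchyme, and embryos that lack Pdgfc, or Pdgfra in the neural crest, develop cleft palate. PDGFRβ is best known for the recruitment of pericytes to vessels and is also made by craniofacial mesenchyme.

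The libraries held 29025090 to 32437977 reads in genes. Of the palatal mesenchyme markers, Barx1 (9916 to 12355 normalised counts in mutants and 10165 to 12077 in controls) and Meox2 (8378 to 10997 in mutants and 7677 to 9723 in controls) were high in all 8 libraries. So was the epithelial marker Epcam (3130 to 4759 in mutants and 2850 to 4103 in controls). Msx1, a gene of the anterior palate, was low at 34.0 to 80.4 in mutants and 54.4 to 132 in controls. Other mesenchyme markers far below Barx1 and Meox2 were Shox2 (387.0 to 780.5 in mutants and 400.1 to 1056.3 in controls) and Alx1 (5.7 to 74.9 in mutants and 41.0 to 135.7 in controls). Yap1 was lower in every mutant library than in every control library (8463 ± 277 normalised counts in mutants and 9610 ± 429 in controls, SD, n = 4 each), although its limma adjusted p was 0.751. Groups without overlap, in either direction, were found for 3.77% of all genes tested. Wwtr1 had 4007 ± 397 in mutants and 4879 ± 352 in controls, also with an adjusted p of 0.751. These counts are summed over each gene and do not isolate the floxed exons, and only cells with Col2Cre activity can have lost them. The nuclear ribosomal RNA locus counted as Gm42418 took 1.56% to 2.48% of the reads in mutants and 4.22% to 5.66% in controls. In bulk tissue, fewer cells of a type and less RNA per cell cannot be told apart. Nothing in the labels says which embryo, or how many, went into a library, and the p-values given here reflect only how far the sequenced samples differ.

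All 6 PDGF genes passed the filter on low values, and 0 of 6 passed the test between mutants and controls (limma on log2(normalised count + 1), Benjamini-Hochberg adjusted over all 16647 genes tested, threshold 0.05). The same count was 0 with edgeR and 0 with DESeq2. Among all genes of the table, 4 were called, 0.0240% of those tested. One gene, Pdgfa, had an unadjusted p under 0.05 in each of the 3 tools, against 6.57% of all genes tested with limma, and 0 of 6 genes had groups without overlap, against 3.77% of all genes. The mean was higher in mutants for Pdgfa, Pdgfb and Pdgfc and lower for Pdgfd, Pdgfra and Pdgfrb. The median size of the log2 difference was 0.11 over the 6 genes and 0.11 over all genes tested.

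**Figure D1:**
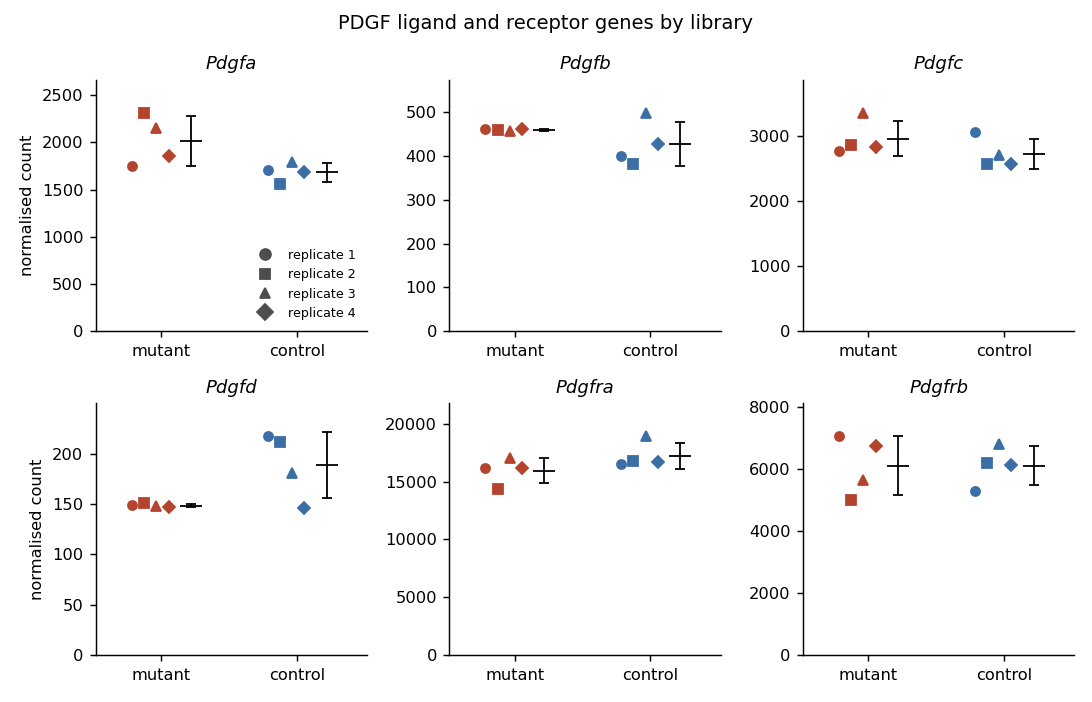
Normalised counts of the 6 PDGF genes in each library (y axis from 0, one panel per gene), mutants in red left of controls in blue, with marker shapes for replicates 1 to 4 and the mean ± SD of each group in black. The groups overlap in every panel, and the 4 mutant libraries nearly coincide for Pdgfb (457.3 to 462.2) and Pdgfd (146.7 to 150.5).

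Pdgfa encodes the A chain, which in embryonic organs is made largely by epithelia and signals to adjacent PDGFRα-positive mesenchyme. Pdgfa (ENSMUSG00000025856) lies on the minus strand of chromosome 5 from 138976014 to 138997370, as the deposited table gives it. It had 1750.4, 2316.0, 2149.6 and 1851.0 normalised counts in mutant replicates 1 to 4 and 1706.9, 1554.1, 1795.4 and 1681.3 in control replicates 1 to 4. Mutant replicates 2, 3 and 4 lay above every control library, while mutant replicate 1 lay inside the control range. The means were 2017 ± 262 in mutants and 1684 ± 99.7 in controls (SD, n = 4 each), a coefficient of variation of 13.0% in mutants and 5.92% in controls. The log2 difference was 0.25 (SE 0.0923, 95% interval 0.051 to 0.45), which is 1.19-fold with an interval of 1.04 to 1.37. The limma p was 0.0183 before adjustment and 0.754 after it, and 2.36% of the genes tested had a smaller p. Exact permutation of the group labels gave a two-sided p of 0.0571, where the smallest p possible for 4 libraries against 4 is 0.0286. The difference was between 0.18 and 0.32 when any 1 library was left out. The unadjusted limma p was above 0.05 without control replicate 2 (0.056), mutant replicate 2 (0.058) or mutant replicate 3 (0.055).

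Pdgfa shares sequence with an antisense gene. The exons of 6330403L08Rik (ENSMUSG00000075585, chromosome 5 from 138995056 to 139000577, plus strand) cover 813 of the 3119 exon bases of Pdgfa, or 26.1%, and without a stated strand setting reads from this stretch cannot be told apart. The antisense gene had 673.9, 463.8, 519.1 and 476.4 normalised counts in the mutant libraries and 543.1, 607.2, 736.6 and 438.0 in the control libraries. Its groups overlapped, and its log2 difference of -0.12 (SE 0.168) ran opposite to that of Pdgfa. Its limma adjusted p was 0.923.

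The epithelial marker list was set beside Pdgfa, and the 2 ran alike in only some of the libraries. The mean level of its 12 genes, relative to the control mean on the log2 scale, was -0.065, 0.70, 0.18 and 0.28 in mutant replicates 1 to 4 and -0.016, -0.31, 0.036 and 0.29 in control replicates 1 to 4. Mutant replicate 2 had the highest epithelial list level and the highest Pdgfa count, and mutant replicate 1 the lowest of the mutants for both. Control replicate 4 had an epithelial list level close to that of mutant replicate 4. Their Pdgfa counts were 1681.3 in control replicate 4 and 1851.0 in mutant replicate 4. Mutant replicate 3, which ranked second for Pdgfa, had a lower epithelial list level than both of these libraries. All 12 epithelial genes had a higher mean in mutants, where 8317 of all 16647 genes did. An unadjusted p under 0.05 was found for 3 of the 12, against 6.57% of all genes, and 0 passed after adjustment. The summed count was 28211 to 49643 in mutants and 25566 to 36365 in controls. The part of epithelial RNA in the Pdgfa difference was not tested.

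Pdgfc encodes the C chain, whose loss in mice causes cleft palate. Pdgfc (ENSMUSG00000028019) lies on the plus strand of chromosome 3 from 81036416 to 81214040. The 250 bases before its RefSeq start are shown because they hold the letters of motifs used by transcription factors that partner YAP and TAZ or respond to growth factors. The capitals mark GGAATG, which is the TEAD motif CATTCC read from the other strand, and the letters of a CArG box, the motif of serum response factor. The window is chr3:81036166-81036415 on the plus strand of GRCm38.p6, from RefSeq.
Pdgfc: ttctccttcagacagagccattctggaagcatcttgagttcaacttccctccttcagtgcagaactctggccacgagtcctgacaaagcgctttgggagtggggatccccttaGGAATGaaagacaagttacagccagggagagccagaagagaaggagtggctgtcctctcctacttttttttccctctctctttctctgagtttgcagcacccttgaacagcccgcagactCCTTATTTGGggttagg
The TEAD letters lay 137 to 132 bases before the start and the CArG box 17 to 8 bases before it. Of 32536 mouse promoter windows of the same length, 12.6% held CATTCC on either strand and 1.48% held a CArG box. A match of letters is a description and not a site of binding.

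Pdgfc had 2771.4, 2862.1, 3353.7 and 2823.0 normalised counts in mutant replicates 1 to 4 and 3059.2, 2570.3, 2696.2 and 2569.0 in control replicates 1 to 4. Mutant replicate 3 was the highest library, control replicate 1 stood above the other 3 mutants, and the groups overlapped. The means were 2953 ± 270 in mutants and 2724 ± 232 in controls (SD, n = 4 each). The log2 difference was 0.12 (SE 0.0796, 95% interval -0.058 to 0.29), or 1.08-fold with an interval of 0.961 to 1.22, and the limma adjusted p was 0.813. The exact permutation p was 0.257. Mutant replicate 3 weighed on the value, which was 0.053 without it and 0.17 without control replicate 1.

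Pdgfb encodes the B chain, which in the embryo is made mainly by endothelium and draws PDGFRβ-positive pericytes to vessels. Pdgfb (ENSMUSG00000000489), on the minus strand of chromosome 15 from 79995900 to 80014808, had 460.9, 460.0, 457.3 and 462.2 normalised counts in the mutant libraries and 401.4, 382.7, 499.6 and 427.2 in the control libraries. The mutant libraries were nearly identical, control replicate 3 stood above them and the other 3 controls below. The means were 460 ± 2.07 in mutants and 428 ± 51.3 in controls (SD, n = 4 each). In recovered reads the SD was 11.9 in mutants, below the 21.7 expected from counting alone, and 49.4 in controls, above the 20.6 expected. The log2 difference was 0.11 (SE 0.117, 95% interval -0.14 to 0.37) with a limma adjusted p of 0.884 and an exact permutation p of 0.314. Control replicates 2 and 3 each moved this value by over 1.5 times, to 0.062 without control replicate 2 and 0.19 without control replicate 3. With the first number of the titles as a replicate block it was 0.035, and among the 3 libraries numbered 3602 (2 mutants and 1 control) it was -0.12.

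Pdgfd encodes the D chain and was the least abundant ligand. Pdgfd (ENSMUSG00000032006), on the plus strand of chromosome 9 from 6168584 to 6378850, had 148.8, 150.5, 147.6 and 146.7 normalised counts in the mutant libraries and 217.2, 211.8, 180.6 and 146.3 in the control libraries. Control replicates 1, 2 and 3 lay above every mutant library, and control replicate 4 was the lowest of all 8, just under the mutants. The means were 148 ± 1.64 in mutants and 189 ± 32.7 in controls (SD, n = 4 each). Recovered reads had an SD of 5.74 in mutants, below the 12.3 that counting alone gives, and 30.3 in controls, above the 13.7 that counting gives. The log2 difference was -0.33 (SE 0.187, 95% interval -0.74 to 0.080), or 0.796-fold with an interval of 0.599 to 1.06. Its limma adjusted p was 0.774 and its exact permutation p 0.143. Leaving out any 1 library gave -0.45 to -0.26.

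Pdgfra encodes PDGFRα, the receptor of the palatal mesenchyme for PDGF-A and PDGF-C, and was the most abundant of the 6 genes. Pdgfra (ENSMUSG00000029231) lies on the plus strand of chromosome 5 from 75152292 to 75198215. Its promoter window is shown beside that of Pdgfc for comparison, from chr5:75152001-75152250 on the plus strand of GRCm38.p6, from RefSeq; it has no capitals because neither CATTCC on either strand nor a CArG box matched.
Pdgfra: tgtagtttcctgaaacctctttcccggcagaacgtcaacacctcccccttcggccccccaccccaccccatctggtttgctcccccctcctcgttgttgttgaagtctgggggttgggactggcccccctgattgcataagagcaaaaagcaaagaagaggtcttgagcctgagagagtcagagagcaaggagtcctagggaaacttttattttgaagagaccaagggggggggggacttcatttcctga
RefSeq windows were looked up for all 6 genes. They were available for Pdgfa, Pdgfc, Pdgfd and Pdgfra, but not for Pdgfb or Pdgfrb, whose promoters were therefore not searched. Both windows of Pdgfa and the window of Pdgfd also held neither motif. No match says only that these letters are not in these 250 bases.

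Pdgfra had 16152.9, 14401.2, 17013.6 and 16196.5 normalised counts in mutant replicates 1 to 4 and 16528.1, 16814.7, 18926.8 and 16665.2 in control replicates 1 to 4. Mutant replicates 1, 2 and 4 lay below every control library, mutant replicate 3 lay inside the control range, and control replicate 3 was the highest library. The means were 15941 ± 1100 in mutants and 17234 ± 1135 in controls (SD, n = 4 each). The log2 difference was -0.11 (SE 0.0657, 95% interval -0.26 to 0.031), or 0.925-fold with an interval of 0.837 to 1.02. The limma adjusted p was 0.778 and the exact permutation p 0.143. Mutant replicate 2 and control replicate 3 each carried part of the value, which was -0.065 without the mutant library and -0.067 without the control library. Over the 12 palatal mesenchyme markers, 6 had a higher and 6 a lower mean in mutants, with 1 higher and 2 lower at an unadjusted p under 0.05 (6.57% of all genes) and 0 after adjustment. The mean level of the list in mutant replicate 2, the lowest library for Pdgfra, was -0.40 on the log2 scale relative to the control mean, against -0.17 to 0.0010 in the other mutants and -0.12 to 0.15 in controls. That low level rested partly on the sparsely counted Alx1, at 5.7 normalised counts in that library, and on the collagens Col1a1 and Col1a2, which osteoblasts also make, whereas Osr2, at 8246, was higher there than in any other. Without the 3 collagens of the list and the low genes Alx1 and Msx1, a choice made after seeing the data, the level of the other 7 in mutant replicate 2 was 0.0070, against 0.020 to 0.20 in the other mutants and -0.12 to 0.10 in controls. The summed count of the list was 374377 to 515553 in mutants and 468476 to 577922 in controls, of which the 3 collagens made up 86.0% to 90.2%. The part of tissue composition in the Pdgfra values was not tested.

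Pdgfrb encodes PDGFRβ, the receptor for PDGF-B and PDGF-D. Pdgfrb (ENSMUSG00000024620), on the plus strand of chromosome 18 from 61045150 to 61085061, had 7058.8, 4996.3, 5656.7 and 6740.4 normalised counts in the mutant libraries and 5291.1, 6205.6, 6814.4 and 6143.7 in the control libraries. The highest and the lowest of the 8 libraries were both mutants, so the control range lay inside the mutant range. The means were 6113 ± 956 in mutants and 6114 ± 626 in controls (SD, n = 4 each), a log2 difference of -0.0079 (SE 0.108, 95% interval -0.24 to 0.23). The fold was 0.995 with an interval of 0.845 to 1.17, the limma adjusted p was 0.994 and the exact permutation p was 0.971. The difference was -0.082 to 0.085 when any 1 library was left out, so its sign was not fixed. Among the 3 libraries numbered 2057 in their titles (1 mutant and 2 controls) it was 0.13, and among the 3 numbered 3602 (2 mutants and 1 control) -0.36. Pdgfrb was also the gene with the widest spread within groups, since 92.5% of the 2256 genes whose mean was within a factor of 2 of its own had a smaller within-group SD on the log2 scale, against 11.3% of 3940 such genes for Pdgfb and 10.4% of 2666 for Pdgfd.

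Markers of pericytes and smooth muscle were set beside Pdgfrb. The mean log2 level of that list was -0.040, 0.31, 0.30 and -0.010 in mutant replicates 1 to 4 and -0.32, 0.22, -0.043 and 0.14 in control replicates 1 to 4. These levels rested on a few genes: Vtn had only 6.8 to 27.3 normalised counts in mutants and 0 to 41.2 in controls, and the muscle genes Acta2 (3073 to 9580 in mutants and 4452 to 5712 in controls) and Des (949 to 3603 in mutants and 1723 to 2253 in controls) were highest in mutant replicate 3, as was the skeletal muscle list, at 0.90. Leaving out these 3 genes was a choice made after seeing the data. The level of the other 7 was then -0.078 to 0.042 in mutants and -0.15 to 0.11 in controls. The groups overlapped both with and without the 3 genes. Of 10 tested genes of the list 7 had a higher and 3 a lower mean in mutants, but those with an unadjusted p under 0.05 (6.57% of all genes) were 2 with a lower mean, Cspg4 and Anpep, and 0 passed after adjustment. The summed count was 14459 to 24764 in mutants and 16889 to 21038 in controls, and the pericyte marker Higd1b was at 0 in every library. Whether pericyte RNA had a part in the Pdgfrb values was not tested.

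**Figure D2:**
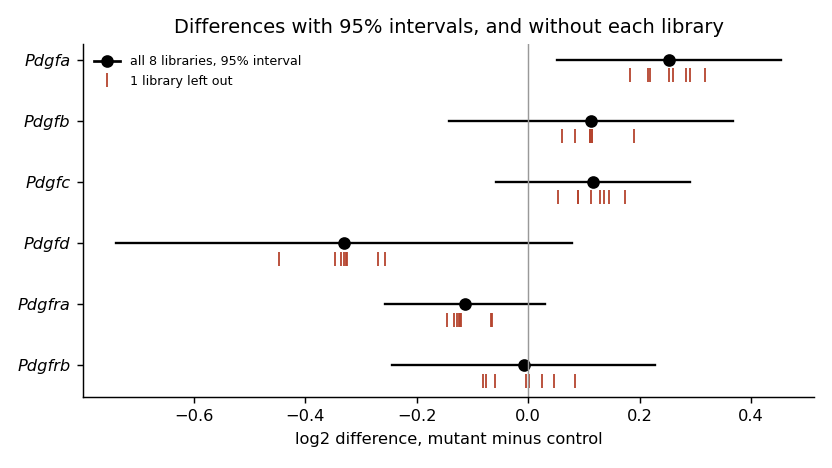
Log2 difference of each PDGF gene, mutant minus control (x axis), with black points and lines for the value and its 95% interval over all 8 libraries and red ticks for the value with 1 library left out. The interval of Pdgfa runs from 0.051 to 0.45 and those of the other 5 genes include 0; the ticks of Pdgfrb fall on both sides of 0.

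Levels can be compared between genes only per length, and here normalised counts were divided by the joined exon length in kilobases. The order was the same in both groups. Pdgfra was highest, at 1590 ± 110 per kilobase in mutants and 1719 ± 113 in controls, followed by Pdgfrb at 1116 ± 175 in mutants and 1116 ± 114 in controls (SD, n = 4 each). Pdgfa (647 ± 83.9 in mutants and 540 ± 32.0 in controls) and Pdgfc (580 ± 53.1 in mutants and 535 ± 45.5 in controls) came next with overlapping ranges in each group. Pdgfb followed at 111 ± 0.498 in mutants and 103 ± 12.3 in controls, and Pdgfd was lowest at 47.1 ± 0.521 in mutants and 59.9 ± 10.4 in controls. Apart from Pdgfa and Pdgfc, no neighbours in this order overlapped within a group. On this length each receptor was thus above each ligand, and the summed receptor level was 1.61 to 2.29 times the summed ligand level in the mutant libraries and 1.99 to 2.44 times in the control libraries. On the length of the longest transcript the mutant ranges of Pdgfrb (921 to 1302) and Pdgfa (850 to 1124) overlapped.

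**Figure D3:**
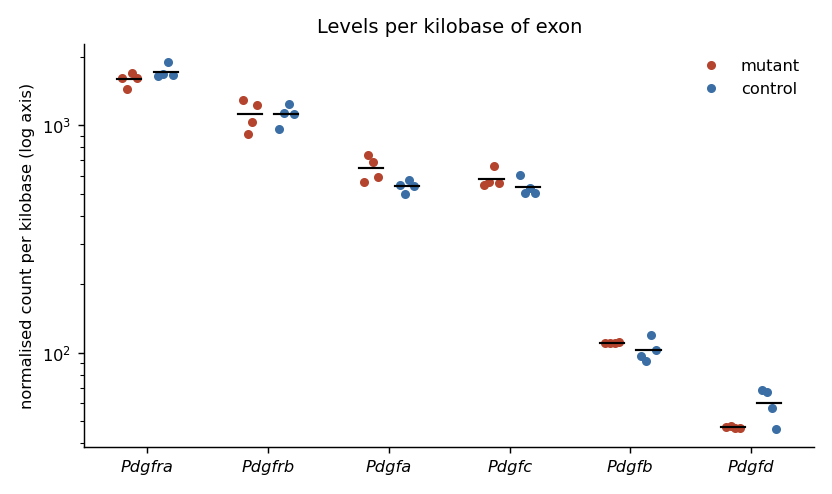
Normalised counts per kilobase of exon (log axis) of the 6 PDGF genes in order of level, with 1 point per library, mutants in red left of controls in blue and a line at each group mean. The receptors lie above the ligands, the ranges of Pdgfa and Pdgfc overlap, and Pdgfd is lowest in both groups.

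The make-up of the ligand pool was described from the same per-kilobase levels. Pdgfa made up 46.6% ± 2.83 of the 4 ligands in mutants and 43.6% ± 1.68 in controls, and Pdgfc 42.0% ± 2.40 in mutants and 43.2% ± 1.91 in controls (SD, n = 4 each). Pdgfb made up 8.03% ± 0.712 in mutants and 8.31% ± 0.873 in controls. The share of Pdgfd was 3.73%, 3.26%, 3.11% and 3.56% in mutant replicates 1 to 4 and 5.24%, 5.78%, 4.46% and 3.89% in control replicates 1 to 4. Every mutant library had a smaller Pdgfd share than every control library, although the counts of Pdgfd overlapped, because a ligand's share also moves with the other ligands. These shares were looked at after the counts were known and were not tested. The ratio of Pdgfra to Pdgfrb was 1.25 to 1.64 in mutants and 1.48 to 1.71 in controls. Within that range mutant replicates 1 and 4 had the lowest ratios, at 1.25 and 1.31.

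No library was high or low for all 6 genes. Mutant replicate 2 had the highest Pdgfa and the lowest Pdgfra and Pdgfrb counts of the 8 libraries, and a receptor to ligand ratio of 1.61, the lowest. Control replicate 3 had the highest Pdgfb and Pdgfra counts and ranked second for Pdgfrb. Control replicate 4 had the lowest Pdgfc and Pdgfd counts. Endothelial markers, which mark the usual source of PDGF-B, were lower in mutant replicate 2 than elsewhere (-0.41 on the log2 scale relative to the control mean, against -0.072 to 0.039 in the other mutants and -0.064 to 0.032 in controls). Of the 12 endothelial genes 9 had a lower mean in mutants, 4 of them with an unadjusted p under 0.05, against 6.57% of all genes, and 0 after adjustment, and their summed count was 16261 to 21775 in mutants and 21374 to 23041 in controls. The Pdgfb count was 460.0 in mutant replicate 2 and 457.3 to 462.2 in the other mutants. Whether endothelial RNA had a part in the Pdgfb values was not tested.

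**Figure D4:**
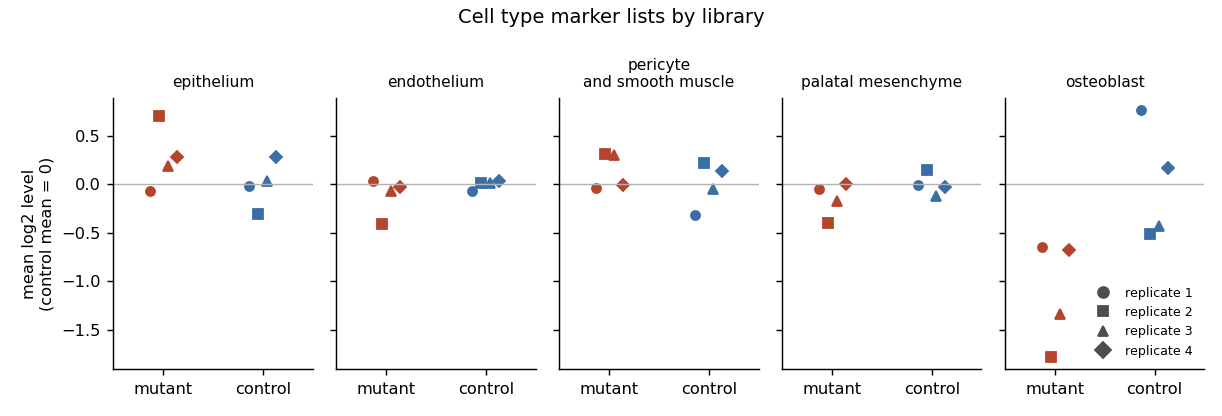
Mean log2 level of 5 cell type marker lists in each library, relative to the control mean (y axis), mutants in red left of controls in blue, with marker shapes for replicates 1 to 4. Mutant replicate 2 is highest for epithelium (0.70) and lowest for endothelium (-0.41), palatal mesenchyme (-0.40) and osteoblast (-1.78).

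Of the remaining marker lists, the osteoblast list had the largest median difference, at -0.93 on the log2 scale. All 7 tested osteoblast genes had a lower mean in mutants, with 3 at an unadjusted p under 0.05, against 6.57% of all genes, and 0 after adjustment, and their summed count was 5983 to 20243 in mutants and 21478 to 40332 in controls, while Bglap, a marker of mature osteoblasts, was at 0 in all libraries. In the chondrocyte list 6 of 7 tested genes had a lower mean in mutants, also with 3 at an unadjusted p under 0.05 and 0 after adjustment (summed count 9550 to 23330 in mutants and 19271 to 33131 in controls). Schwann cell and glia markers had a higher mean in 7 of 8 genes (3188 to 6763 in mutants and 3079 to 3515 in controls) and erythroid markers in 7 of 7 (16025 to 42302 in mutants and 19431 to 23721 in controls). In each of these 2 lists 2 genes, both higher in mutants, had an unadjusted p under 0.05, against 6.57% of all genes, and 0 passed after adjustment. Macrophage markers were higher in 5 of 8 genes (3886 to 5025 in mutants and 4043 to 4680 in controls), skeletal muscle markers in 3 of 8 (16305 to 61472 in mutants and 32536 to 40910 in controls) and neuron markers in 4 of 8 (4861 to 9359 in mutants and 4026 to 7438 in controls). At an unadjusted p under 0.05 there were 1 higher and 1 lower macrophage gene, 0 skeletal muscle genes and 0 neuron genes, and 0 passed after adjustment. The part of these cell types in the PDGF values was not tested.

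The wider PDGF pathway was described with 9 lists of 112 symbols, of which 109 were measured and 106 passed the filter. In the test over all genes 0 of 106 passed with limma, 0 with edgeR and 0 with DESeq2. At an unadjusted limma p under 0.05 there were 2 genes with a higher and 8 with a lower mean in mutants, 9.43% of 106 against 6.57% of all genes. The mean was higher in mutants for 54 genes and lower for 52, with a median log2 difference of 0.013, against -0.00015 over all genes tested. Every pathway gene named here therefore had an adjusted p above the threshold, the lowest being 0.751.

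Among ligands of the related VEGF family, 2 of 5 tested genes had a higher mean in mutants, and the list median was -0.013. Pgf, which encodes placental growth factor, had 256 ± 53.7 normalised counts in mutants and 238 ± 20.6 in controls, a log2 difference of 0.086 (SE 0.177). Vegfc, a growth factor for lymphatic vessels, had 682 ± 71.4 in mutants and 706 ± 130 in controls (log2 difference -0.034). Of 6 tested receptors related to the PDGF receptors, 4 had a lower mean in mutants and the median was -0.23. The members of the PDGF receptors' own class, Csf1r and Kit, were those with a higher mean, with log2 differences of 0.11 for Csf1r and 0.041 for Kit, and the 4 with a lower mean were Pdgfrl and the VEGF receptors. Pdgfrl, a secreted protein that resembles the extracellular part of a PDGF receptor, had 428 ± 51.7 in mutants and 546 ± 96.9 in controls (log2 difference -0.34, SE 0.145). Among the VEGF receptor genes of endothelium, Flt1 had 918 ± 125 in mutants and 1175 ± 253 in controls (log2 difference -0.34). Kdr had 2285 ± 318 in mutants and 2722 ± 377 in controls (-0.25). Flt4 had 1538 ± 220 in mutants and 1773 ± 313 in controls (-0.20). The summed count of endothelial markers, of which Kdr is one, was 16261 to 21775 in mutants and 21374 to 23041 in controls. Their mean log2 level, relative to the control mean, was -0.41 in mutant replicate 2 and -0.072 to 0.039 in the other mutants. In controls it was -0.064 to 0.032. The part of endothelial RNA in the VEGF receptor differences was not tested.

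Proteases that activate PDGF ligands, which include Furin and related convertases for the A and B chains as well as those that cut PDGF-C and PDGF-D, had a higher mean in mutants for 4 of 8. Plau, which encodes urokinase, had 534 ± 74.6 normalised counts in mutants and 628 ± 52.7 in controls, a log2 difference of -0.24 (SE 0.12). Plat, which encodes tissue plasminogen activator, had a log2 difference of 0.16 and was not among the 4 genes of its list with the smallest p. St14, which encodes matriptase, an epithelial membrane protease, had 1551 ± 375 in mutants and 1323 ± 277 in controls (0.22, SE 0.177). The proprotein convertase gene Pcsk6 had 1749 ± 97.7 in mutants and 2037 ± 330 in controls (-0.21). Of the inhibitors, Spint2 and Spint1, which restrain matriptase in epithelia, had higher means in mutants (2835 ± 528 in mutants and 2319 ± 347 in controls for Spint2, and 823 ± 164 in mutants and 721 ± 179 in controls for Spint1). St14, Spint1 and Spint2 were each highest in mutant replicate 2 or 4, the mutants with the highest epithelial list levels. Control replicate 4 had an epithelial list level of 0.29, against 0.28 in mutant replicate 4, and was the highest control for each of these genes. Whether epithelial RNA had a part in these values was not tested. Serpine2, a protease inhibitor also called protease nexin, had 8235 ± 2457 in mutants and 9665 ± 1843 in controls.

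Of the 6 tested genes for proteins that bind the ligands or assist the receptors, 3 had a lower mean in mutants and an unadjusted limma p under 0.05. Over all genes tested the share with such a p, in either direction, was 6.57%, and 0 of the 6 passed after adjustment. Cspg4, the NG2 proteoglycan of pericytes, which binds PDGF-AA, had 1604.5, 1342.1, 1676.9 and 1333.1 normalised counts in mutants and 1923.1, 1701.5, 2112.4 and 1744.1 in controls. Its groups did not overlap, as for 3.77% of all genes tested, and the log2 difference was -0.33 (SE 0.0983, limma adjusted p = 0.754). Sparc, a matrix protein that binds PDGF-B, had 37524 ± 4078 in mutants and 45234 ± 2216 in controls (-0.27, SE 0.0777), with 3 mutants below every control. Nrp2, a neuropilin co-receptor, had 10648.0, 4773.0, 7910.5 and 9092.0 in mutants and 11730.0, 10564.2, 11797.4 and 10817.2 in controls, lowest in mutant replicate 2, and a log2 difference of -0.53 (SE 0.186). Lrp1, which modulates PDGFRβ signalling, had 13008 ± 1768 in mutants and 14228 ± 3848 in controls.

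Inside the cell, the 29 adaptors and enzymes that dock on activated receptors had a higher mean in mutants for 15 and a lower mean for 14. Grb14, an adaptor better known from insulin signalling, had 396.7, 398.5, 320.3 and 354.0 normalised counts in mutants and 255.6, 274.3, 249.3 and 265.2 in controls. Every mutant was above every control for Grb14, where 3.77% of all genes tested had groups without overlap in either direction. The log2 difference of Grb14 was 0.49 (SE 0.133, limma adjusted p = 0.751). Pik3r1, the regulatory subunit of PI3-kinase that docks on both PDGF receptors, had 5309 ± 154 in mutants and 5875 ± 409 in controls (-0.14, SE 0.0591). Src, a kinase recruited by the receptors, had 4314 ± 220 in mutants and 3970 ± 214 in controls (0.12, SE 0.0605). The phosphatases, ubiquitin ligases and trafficking proteins of the receptors had a lower mean for 8 of 11, with a median of -0.034, and none of them had an unadjusted p under 0.05. In that list Slc9a3r1, the scaffold NHERF1, had 852 ± 150 in mutants and 702 ± 114 in controls (0.28, SE 0.147). The PI3K-AKT and ERK arms had a higher mean for 13 of 19 genes, and the 4 with the smallest p, Hras (0.13), Foxo3 (-0.12), Braf (-0.13) and Araf (0.095), differed by at most 0.13 on the log2 scale.

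The list of genes induced by PDGF or linked to serum response factor, which includes Srf, Mkl1 and Mkl2, had a higher mean in mutants for 11 of 18. Its median was 0.060. Ier2, an immediate early gene, had 1521.8, 1732.0, 1539.8 and 1683.1 normalised counts in mutants and 1270.3, 1214.4, 1397.3 and 1460.3 in controls. Cyr61, an immediate early gene that is also a widely used target of YAP and TAZ, had 1405.1, 1618.4, 1425.0 and 1511.1 in mutants and 1945.4, 1795.2, 1689.7 and 1736.2 in controls. The groups did not overlap for either gene, with every mutant above every control for Ier2 (log2 difference 0.28, SE 0.0811) and below every control for Cyr61 (-0.27, SE 0.0736). Over all genes tested, 3.77% had groups without overlap. Neither passed the test over all genes (limma adjusted p = 0.754 for Ier2 and 0.751 for Cyr61). Myc had 3411 ± 576 in mutants and 3875 ± 573 in controls. The chemokine gene Ccl7 was near the detection limit, at 6.55 ± 6.75 in mutants, where mutant replicate 2 had 0, and 20.1 ± 7.50 in controls, so its log2 difference of -2.07 depends on the pseudocount of 1.

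**Figure D5:**
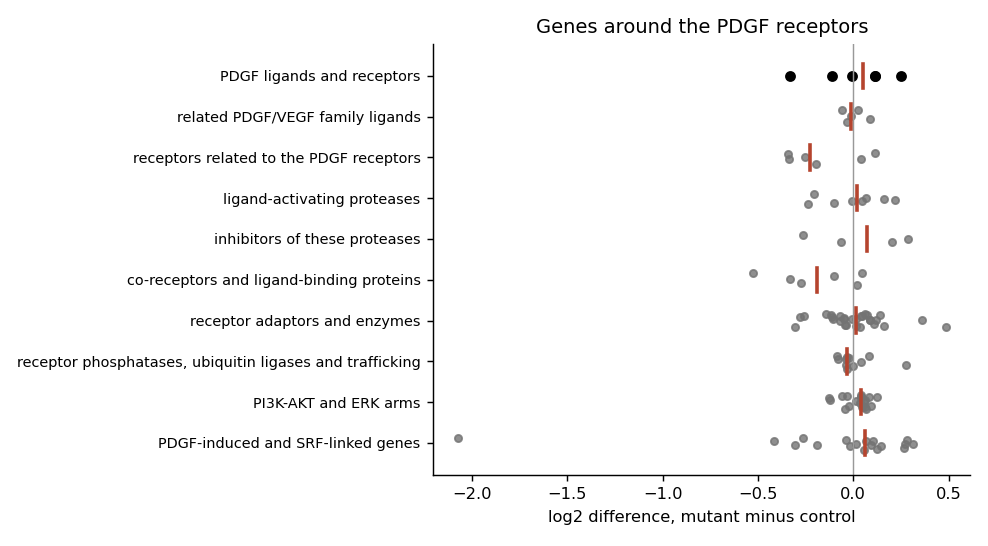
Log2 differences, mutant minus control (x axis), of the 6 PDGF genes (black points, top row) and of the tested genes in 9 pathway lists (grey points, 1 row per list), with red bars at list medians. Medians lie between -0.23, for receptors related to the PDGF receptors, and 0.071, for protease inhibitors, and the point near -2.07 is Ccl7.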

How the data were processed

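RNA of 8 libraries was analysed, 4 mutant and 4 control, grouped by the labels' genotype and numbered in the order of the labels. The signal values are normalised counts deposited by the authors, which are gene reads divided by 1 size factor per library; STAR 2.7.2 and DESeq2 (no version) are named per the submitters' processing notes, and the sources used here name no counter, strand setting, annotation or build. In the table the authors also deposited log2-like variance-stabilised values, used in 1 alternative, and a percent GC per gene, not used in any result. Gene positions equalled the GENCODE M21 annotation of GRCm38 for 49909 of 52403 IDs (95.2%) and for 5 of the 6 members, all but Pdgfb.

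Whole reads were recovered for 100% of values between 50 and 5000, within 0.1 reads, in each library; a wrong step gave at most 24.8%. A gene at 0 could have had up to 3 reads, a limit for counting error only. The 16647 genes that reached a normalised count of 10 in 4 or more libraries were fitted with limma 3.58.1 (trend, two-sided, Benjamini-Hochberg) in R 4.3.3 on log2(normalised count + 1), so differences of low genes are understated. Other settings tried were TMM and upper-quartile scaling, pseudocounts of 0.5 and 8, the stabilised values, no filter or a filter at a mean of 50, edgeR 4.0.16 and DESeq2 1.42.0 on recovered reads, the number that opens each title, as a replicate block or on its own, and leaving out each library. Exon lengths came from GENCODE M21 and promoter windows from RefSeq. The test was tried on simulated data. The 6 genes and all lists were chosen with earlier results of these data known. Named besides the 6 were up to 4 tested genes per list with the smallest unadjusted p, genes overlapping a member, and the 3 genes most like each; Plat, Kit and the tissue markers named to describe a list lie outside this rule, and some genes it allows are not named. Python 3.11.15 with matplotlib 3.10.9 drew the figures.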

Additional observations from a re-analysis of the deposited data

Results flagged for a closer look

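A library was singled out where the gap between the highest or lowest value of its group of 4 and the nearest other value, divided by the group's range, passed the 95% critical value of Dixon's test. Over 43 genes, the PDGF genes and the named pathway genes, 86 groups were looked at and 6 values passed; chance alone gives about 1 in 20 groups.

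Pdgfc stood out in mutant replicate 3, at 3353.7 normalised counts against 2862.1 in the next mutant. Pdgfra stood out in control replicate 3, at 18926.8 against 16814.7 in the next control. Vegfc was high in mutant replicate 4 (788.9 against 649.6 in the next mutant) and low in control replicate 1 (511.1 against 763.3 in the next control). Kdr was low in mutant replicate 2, at 1811.5 against 2397.0 in the next mutant. Sparc was low in control replicate 3, at 41943.1 against 45979.8 in the next control.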

How the results depend on the processing

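Across 20 alternatives, Pdgfa, Pdgfc, Pdgfd and Pdgfra kept the sign of their log2 difference, and in the 18 with a test 0 of the 6 PDGF genes and 0 pathway genes were called. Pdgfb was -0.12 within title number 3602, and Pdgfrb turned positive with edgeR (0.0043), with DESeq2 (0.00065), on leaving out control replicate 2 (0.0012), control replicate 3 (0.046), mutant replicate 2 (0.085) or mutant replicate 3 (0.025), and within title number 2057 (0.13); the cause was not tested. With 1 library left out Pdgfrb ranged from -0.082 to 0.085. Adjusted p ranged from 0.471 to 0.976 for Pdgfa, 0.723 to 0.978 for Pdgfb, 0.744 to 0.976 for Pdgfc, 0.723 to 0.976 for Pdgfd, 0.743 to 0.976 for Pdgfra and 0.863 to 0.9997 for Pdgfrb. Over the whole table, 4 genes were called, against 31 with DESeq2 and 0 to 11 with 1 library left out: 0 on leaving out control replicate 2, control replicate 4 or mutant replicate 3, 11 on leaving out control replicate 3 and 8 on leaving out mutant replicate 4. Correlations of deviations from the group means were -0.0077 to 0.10 between same-numbered mutant and control libraries and -0.085 to 0.076 between differently numbered ones. With so few libraries these correlations cannot settle whether the first title number pairs the samples, and the labels do not say what it is. As a replicate block this number gave 0.25 for Pdgfa, 0.035 for Pdgfb, 0.17 for Pdgfc, -0.27 for Pdgfd, -0.16 for Pdgfra and -0.12 for Pdgfrb, with 0 of 6 called. Within number 2057 the difference was 0.20 for Pdgfa, -0.26 for Pdgfd and -0.048 for Pdgfra, and within number 3602 it was 0.31 for Pdgfa, -0.28 for Pdgfd, -0.27 for Pdgfra and -0.36 for Pdgfrb, without a test. Numbers 3621 and 3606 hold 1 group each and give no value. The stabilised values, which have a floor of 9.47, gave smaller differences, 0.16 for Pdgfa and -0.080 for Pdgfd. On the length of the longest transcript, levels per kilobase were 979 in mutants and 818 in controls for Pdgfa, 156 in mutants and 145 in controls for Pdgfb, 839 in mutants and 774 in controls for Pdgfc, and 2333 in mutants and 2522 in controls for Pdgfra, in the same order, with Pdgfrb then overlapping Pdgfa in mutants. Read depth limits Pdgfd most, at 145 to 159 reads per library in mutants and 149 to 217 in controls.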

Other observations

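The genes whose counts ran most alike with each PDGF gene were listed as a description, by Pearson's r of log2(normalised count + 1) over the 8 libraries after each group's mean was subtracted. They are the highest of 13565 genes with a mean of at least 50, so high values arise by selection and carry no test, and the libraries share depth and tissue composition. For Pdgfa they were Sh3bp4 (r = 0.99, rho = 0.98), Slc25a5 (r = 0.98, rho = 0.95) and Ajuba (r = 0.98, rho = 0.95). For Pdgfc they were Wipf3 (r = 0.99, rho = 0.95), Gm6472 (r = 0.99, rho = 0.95) and Zfand3 (r = 0.98, rho = 0.95). For Pdgfb they were Dnaaf3 (r = 0.97, rho = 0.67), Nat8l (r = 0.96, rho = 0.93) and Lrp10 (r = 0.96, rho = 0.71). For Pdgfd they were Srprb (r = 0.98, rho = 0.98), Ccdc148 (r = 0.98, rho = 0.81) and Nap1l4 (r = 0.98, rho = 0.79). For Pdgfra they were Hnrnpul1 (r = 0.98, rho = 0.95), Sppl3 (r = 0.98, rho = 0.98) and Ski (r = 0.97, rho = 0.95). For Pdgfrb they were Tsku (r = 0.98, rho = 0.93), Slc27a6 (r = 0.97, rho = 0.90) and Reck (r = 0.97, rho = 0.98). For Pdgfb and Pdgfd the values rest on the control libraries, since their mutant libraries hardly varied.

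Other genes whose annotated span overlaps a PDGF gene were at or near 0. Mir7213 (Pdgfb), Ddi1 (Pdgfd) and Mir7025 (Pdgfra) were at 0 in every library, and Gm16000 (Pdgfc), Gm42802 and Gm42803 (Pdgfra) had at most 14.2, 18.0 and 11.3 normalised counts in any library.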
